A study of Mus musculus with 2 samples.

Results

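A set of 10 imprinted genes, of the 32285 genes listed in each library, was followed across the cells of Lewis lung carcinoma (LLC) tumors: *H19*, *Igf2*, *Igf2r*, *Peg3*, *Kcnq1ot1*, *Meg3*, *Mest*, *Plagl1*, *Cdkn1c* and *Grb10*. They were chosen by name as known imprinted genes, and all 10 were found by symbol. LLC is a mouse lung carcinoma line that grows after injection under the skin of C57BL/6 mice. The study asked how soluble guanylate cyclase (sGC), the nitric oxide receptor of pericytes, shapes the tumor. The control library (CT, called sGC Ctr) came from Gucy1b1 flox/flox mice, and the other (KO, called sGC ∆PC) from mice whose genotype label reads Cspg4-CreERT2::Gucyc1b1 flox/flox, in which tamoxifen deletes the β1 subunit of sGC in cells that express *Cspg4*. Tamoxifen was given 5 times to both groups from an age of 4 weeks, LLC cells were injected at 8 weeks, and tumors were taken 2 weeks after that. The injected LLC cells carry neither the floxed allele nor Cre, so the deletion concerns the host's cells. Each group is 1 library made from 3 pooled tumors.

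An imprinted gene is expressed mainly from the copy inherited from 1 parent, because a differentially methylated control region marks the maternal or paternal copy. Many imprinted genes act on growth: paternally expressed ones such as *Igf2* tend to promote it, and maternally expressed ones such as *Igf2r*, *Cdkn1c* and *Grb10* tend to restrain it. Several sit in clusters with a long noncoding RNA (*H19*, *Kcnq1ot1*, *Meg3*), are high in the fetus and placenta, and decline after birth. The libraries count RNA molecules per gene and do not tell the parental copies apart, so imprinting itself was not measured.

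The sGC Ctr library holds 15007 barcodes and the sGC ∆PC library 25631, of which 12220 and 22498 cells were kept, with 476464534 and 412064152 unique molecular identifiers (UMIs, each counting 1 captured RNA molecule). Depth differed: a median of 35776.5 UMIs per cell in sGC Ctr stood against 8685 in sGC ∆PC. Cells were put into classes by marker genes: 7544 and 13397 cancer cells, 92 and 200 fibroblasts, 44 and 38 pericytes, 63 and 61 endothelial cells (ECs), 2642 and 3174 macrophages, 249 and 295 granulocytes, 93 and 91 lymphocytes and 41 and 34 dendritic cells. Cells at the gate level of more than 1 class (392 and 2307), whatever the number of markers found, were set aside as possible doublets. Their median depth was 7025 and 2845 UMIs. The fibroblast level was ignored in cells past the pericyte gate, and pericytes held fibroblast markers at 147 and 94.3 per 10000 UMIs. Other cells that passed no gate (1060 and 2901) got no class. A class name stands for cells above its marker gates. The median pericyte held 8 of 8 pericyte markers in sGC Ctr and 7 in sGC ∆PC, the median EC 10 of 10 EC markers in both, and the median dendritic cell only 2 of 6. The markers of cancer cells stood in the other classes at 5.25% to 12.02% of their level in cancer cells, so part of each class's RNA may come from cancer cells. *Gucy1b1* in pericytes was at 89.4 UMIs per 1000000 UMIs of the class (CPM) in sGC Ctr (56 UMIs) and 28.7 in sGC ∆PC (11 UMIs). Macrophages held 2 and 9 *Gucy1b1* UMIs. *Cspg4*, the gene that drives Cre, was not found in pericytes alone. It was at 109 CPM (68 UMIs) and 54.8 CPM (21 UMIs) in pericytes, and at 49.1 CPM (1480 UMIs) and 27.4 CPM (741 UMIs) in macrophages. Whether Cre acted in macrophages was not tested. The libraries share 131 barcodes, 98 of them among kept cells and 40 of those in the same class.

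A level below is the summed UMIs of a gene in a class, per 1000000 UMIs of that class (CPM), with an exact 95% Poisson interval. All intervals cover counting error only, since UMIs of 1 library are no replicates. With 1 library per condition there is no test, and a difference between conditions cannot be told apart from a difference between libraries. A gene is called apart when it differs at least 2-fold among genes with at least 50 UMIs in the compared cells. These are counts from the 3′ end of RNA, so levels are compared between cells and not between genes.

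*H19* and *Igf2* are neighbors on chromosome 7 (GRCm38 coordinates throughout, the assembly of mm10). *H19*, a noncoding RNA expressed from the maternal copy, lies at chr7:142575529-142578143 on the minus strand. *Igf2*, a fetal growth factor expressed from the paternal copy, lies 72.6 kb away at chr7:142650766-142666816, also on the minus strand. Each hosts a microRNA, in an exon of *H19* and in an intron of *Igf2*. The hairpins were not among the genes listed, so only the host RNAs were measured. The RefSeq mature sequences are shown because they are a known product of these RNAs, with the seed (bases 2 to 8) in capitals, and no seed was shared among them.
mmu-miR-675-5p: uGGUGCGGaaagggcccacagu
mmu-miR-675-3p: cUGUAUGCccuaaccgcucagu
mmu-miR-483-5p: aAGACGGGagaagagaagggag
mmu-miR-483-3p: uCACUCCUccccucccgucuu

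In cancer cells *H19* was at 46.2 CPM in sGC Ctr (19419 UMIs, 45.6 to 46.9) and 67.3 CPM in sGC ∆PC (23812 UMIs, 66.4 to 68.1). Cancer cells held 91.8% and 89.97% of all *H19* UMIs, and 88.2% and 85.9% of the UMIs of all genes. Pericytes had 44.7 CPM (28 UMIs) and 49.6 CPM (19 UMIs), not separated from cancer cells beyond counting error. Fibroblasts had 39.8 CPM (80 UMIs) and 36.1 CPM (68 UMIs). This was not separated from cancer cells in sGC Ctr but 1.86-fold lower in sGC ∆PC (log2 ratio to cancer cells -0.90, interval -1.26 to -0.55). Few fibroblasts held most of these UMIs: 5 of 92 cells held 72.5% in sGC Ctr, and 10 of 200 held 67.6% in sGC ∆PC. ECs were lowest in both libraries, at 6.25 CPM (11 UMIs) and 11.6 CPM (13 UMIs). The share of cancer-cell RNA in ECs would carry 3.47 CPM and 3.53 CPM, which is 55.6% and 30.4% of what was found. Its part was not tested. Ordered by level, no neighboring pair of classes was separated beyond counting error in either library, although the ends of the order were: cancer cells stood 7.39-fold and 5.79-fold above ECs.

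*Igf2* was scarce everywhere. Cancer cells had 1.41 CPM in sGC Ctr (591 UMIs) and 1.97 CPM in sGC ∆PC (696 UMIs), which made up 89.3% and 85.5% of its UMIs, close to the share of all UMIs that cancer cells held. In pericytes 9 UMIs gave 14.4 CPM in sGC Ctr, with an interval from 6.57 to 27.3, and 1 UMI gave 2.61 CPM in sGC ∆PC, with an interval from 0.0661 to 14.5. The 2 intervals overlap. Fibroblasts held 1 and 3 UMIs, and dendritic cells none, which allows up to 9.12 and 13.5 CPM.

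*Igf2r* (chr17:12682406-12769664, minus strand) encodes the receptor that takes IGF2 into lysosomes for breakdown. Pericytes were highest, at 133 CPM (83 UMIs) in sGC Ctr and 138 CPM (53 UMIs) in sGC ∆PC, separated beyond counting error from fibroblasts at 90.6 CPM and 95.6 CPM. Cancer cells, at 78.2 CPM (32870 UMIs) and 82.6 CPM (29257 UMIs), were not separated from fibroblasts. ECs were lower, at 23.9 CPM (42 UMIs) and 34.0 CPM (38 UMIs), and dendritic cells had 2 and 10 UMIs. The noncoding RNA *Airn* overlaps *Igf2r* by 28354 bases on the opposite strand. Whether counting used strand is not given in the sources used here. Whether reads from overlapping partners were counted apart is therefore not known here, which also holds for *Kcnq1ot1* with *Kcnq1* and for *Mest* with *Copg2*.

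*Meg3* separated the classes most sharply. This maternally expressed noncoding RNA (chr12:109541001-109571726, plus strand) lies 77.7 kb from *Dlk1*, which encodes a Notch-related protein of progenitor cells, and 32.2 kb from the noncoding RNA *Rian*. Pericytes had 1673 CPM in sGC Ctr (1048 UMIs, 1574 to 1778) and 1125 CPM in sGC ∆PC (431 UMIs, 1021 to 1236). Fibroblasts had 887 CPM (1781 UMIs) and 726 CPM (1367 UMIs). Every other class was at or under 8.54 CPM in both libraries, and cancer cells had 1.04 CPM (437 UMIs) and 1.90 CPM (671 UMIs). In sGC Ctr, pericytes therefore stood 1609-fold and fibroblasts 853-fold above cancer cells, and in sGC ∆PC 594-fold and 383-fold. After thinning each cell to 2000 UMIs, 88.6% of 44 pericytes in sGC Ctr had a *Meg3* UMI (exact binomial interval 75.4% to 96.2%) and 85.7% of 28 in sGC ∆PC (67.3% to 96.0%; 10 shallower cells left out). Unthinned, the shares were 95.5% and 86.8%. In macrophages, with little of the RNA, the thinned shares were 0.304% and 0.233%, at median depths of 10299.5 and 7039 UMIs against 13075 and 8339.5 in pericytes.

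*Dlk1*, *Rian* and *Mirg* of the same domain followed *Meg3* in part. *Rian* was at 185 CPM (116 UMIs) and 193 CPM (74 UMIs) in pericytes and 168 CPM (337 UMIs) and 138 CPM (259 UMIs) in fibroblasts, against 0.231 CPM and 0.424 CPM in cancer cells. *Mirg* was at 31.9 CPM (20 UMIs) and 23.5 CPM (9 UMIs) in pericytes and 15.4 CPM and 16.5 CPM in fibroblasts, with 31 UMIs in each. *Dlk1* differed from its neighbors: no UMI was found in fibroblasts of either library, while pericytes had 55.9 CPM (35 UMIs) in sGC Ctr and 146 CPM (56 UMIs) in sGC ∆PC. Pericytes held 67.3% and 59.6% of all *Dlk1* UMIs.

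*Meg3* hosts 2 microRNA genes in its exons, and the first of its 2 promoter entries in RefSeq is shown with the cAMP-response motif TGACGTCA in capitals, at 57 bases before the start site. The motif is its own reverse complement. The window is chr12:109540746-109541045, plus strand (GRCm38.p6), 250 bases before and 50 after the start.
mmu-miR-770-5p: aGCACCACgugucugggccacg
mmu-miR-770-3p: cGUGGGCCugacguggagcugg
mmu-miR-1906: uGCAGCAGccugaggcagggcu
Meg3 promoter: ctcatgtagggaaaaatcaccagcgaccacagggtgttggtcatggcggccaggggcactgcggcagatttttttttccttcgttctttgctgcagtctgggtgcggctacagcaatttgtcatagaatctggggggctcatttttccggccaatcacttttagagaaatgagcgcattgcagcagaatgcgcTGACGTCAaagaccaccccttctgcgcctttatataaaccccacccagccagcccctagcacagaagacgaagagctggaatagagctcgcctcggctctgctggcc

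**Figure D1:**
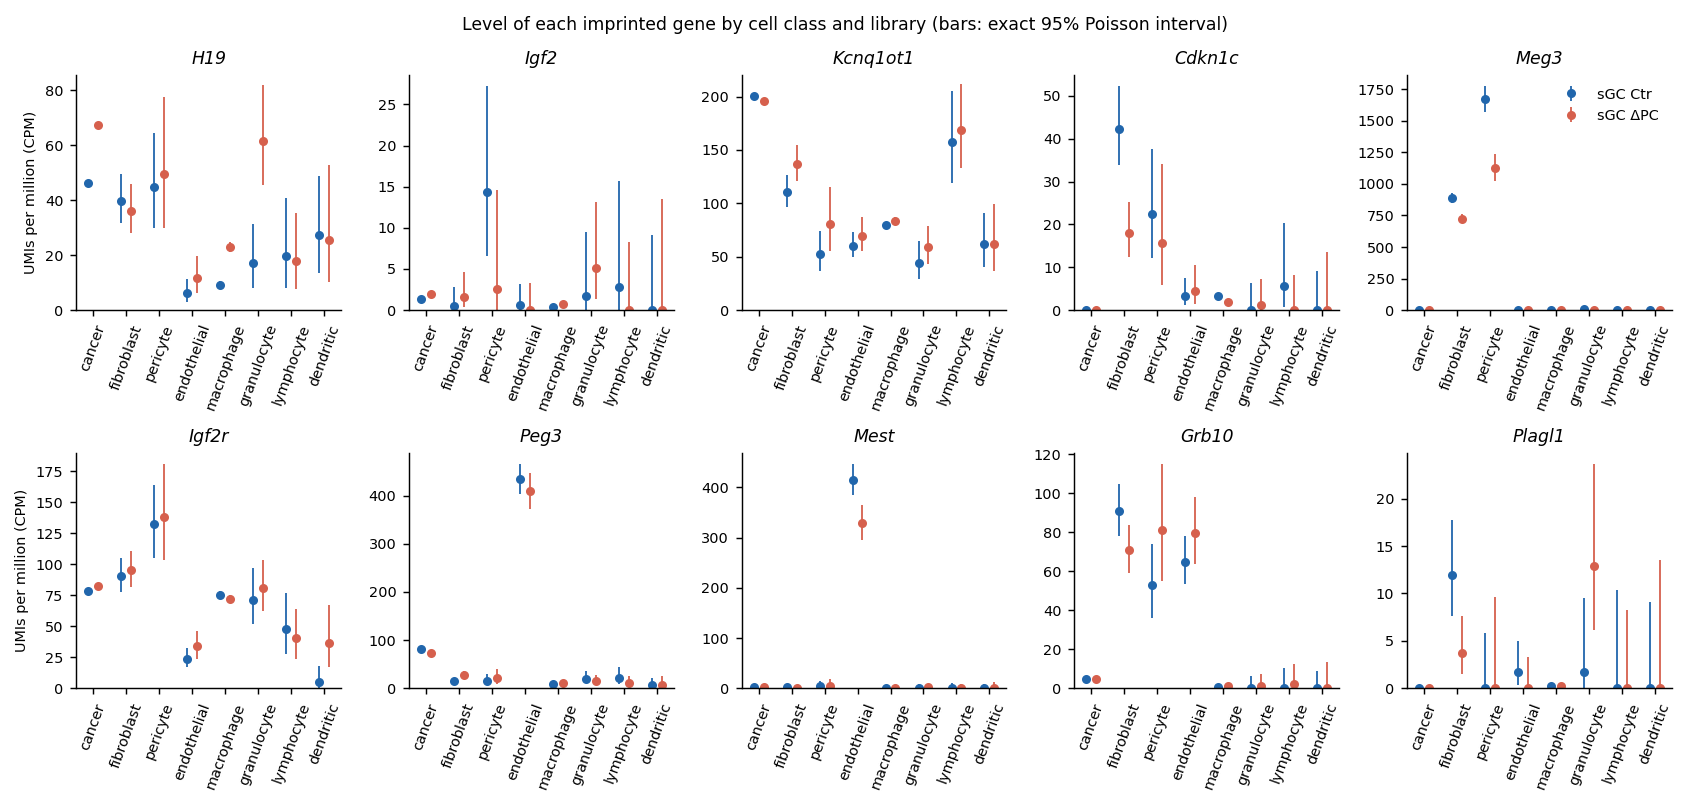
Level of each of the 10 genes (CPM, linear axis) by cell class, with sGC Ctr in blue, sGC ∆PC in red and exact 95% Poisson intervals as bars. *Meg3* stands out in fibroblasts and pericytes (726 to 1673 CPM), *Peg3* and *Mest* in ECs (329 to 433 CPM), and the libraries lie close together in most panels.

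*Peg3* and *Mest*, both expressed from the paternal copy, were highest in ECs. *Peg3* encodes a zinc finger protein linked to growth and maternal behavior and lies at chr7:6703892-6730431 on the minus strand, 146 bases from the oppositely transcribed *Usp29*. ECs had 433 CPM of *Peg3* in sGC Ctr (763 UMIs, 403 to 465) and 409 CPM in sGC ∆PC (457 UMIs, 372 to 448). It was uneven over ECs: 3 of 63 cells held 32.1% of these UMIs in sGC Ctr, and 3 of 61 held 41.6% in sGC ∆PC. No *Peg3* UMI was found in 30.2% and 47.5% of ECs, where an even level would leave 2.20% and 9.99% without. Cancer cells came next at 82.0 CPM (34474 UMIs) and 74.1 CPM (26245 UMIs), and ECs stood 5.28-fold and 5.51-fold above them. All other classes lay at or below 27.6 CPM. In macrophages, at 8.53 CPM and 11.2 CPM, the amount that the share of cancer-cell RNA would carry was 6.57 CPM and 6.81 CPM, which is 77.1% and 60.6% of what was found.

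*Mest* encodes a hydrolase-like protein and lies at chr6:30723547-30748465 on the plus strand, with its end overlapping *Copg2* by 912 bases on the other strand. ECs had 415 CPM in sGC Ctr (731 UMIs, 386 to 447) and 329 CPM in sGC ∆PC (368 UMIs, 296 to 364). No other class was above 5.22 CPM. ECs stood 156-fold and 118-fold above cancer cells, which had 2.67 CPM (1122 UMIs) and 2.79 CPM (989 UMIs). After thinning, 41.3% of 63 ECs and 39.3% of 56 had a *Mest* UMI (intervals 29.0% to 54.4% and 26.5% to 53.2%; 81.0% and 67.2% unthinned), against 0.524% and 0.5004% of cancer cells. Because so many cancer cells were sequenced, they still held 55.0% and 63.9% of all *Mest* UMIs, and the ECs 35.8% and 23.8%.

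The *Mest* intron holds the gene of miR-335, shown with the promoters of *Mest* and *Peg3*, the 2 members highest in ECs. The *Peg3* window is chr7:6730370-6730669 on the minus strand, with TGACGTCA in capitals at 178 bases before the start. The *Mest* window, the third of its 3 entries, is chr6:30737803-30738102 on the plus strand, with the GC box GGGCGG in capitals at 60 bases before the start.
mmu-miR-335-5p: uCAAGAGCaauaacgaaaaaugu
mmu-miR-335-3p: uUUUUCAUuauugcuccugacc
Peg3 promoter: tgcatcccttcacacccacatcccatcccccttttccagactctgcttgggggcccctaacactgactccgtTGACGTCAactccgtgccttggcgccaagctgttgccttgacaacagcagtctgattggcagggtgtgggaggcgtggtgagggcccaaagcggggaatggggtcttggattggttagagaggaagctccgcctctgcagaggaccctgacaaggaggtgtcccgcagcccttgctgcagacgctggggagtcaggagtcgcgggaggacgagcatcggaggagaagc
Mest promoter: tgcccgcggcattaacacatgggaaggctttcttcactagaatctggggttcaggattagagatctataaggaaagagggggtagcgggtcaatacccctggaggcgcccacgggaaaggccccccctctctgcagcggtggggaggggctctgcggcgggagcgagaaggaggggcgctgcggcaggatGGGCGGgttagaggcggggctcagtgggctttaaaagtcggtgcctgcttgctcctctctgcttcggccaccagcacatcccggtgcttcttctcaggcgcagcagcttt

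Of the 10 genes, 8 had a promoter entry (*H19* and *Cdkn1c* had none), and 2 of the 8, *Peg3* and *Meg3*, held TGACGTCA. Over all 32851 promoter entries of the same length 588 (1.79%) did, while GGGCGG, searched on both strands, was in 35.7%. The members were counted by gene, with the motif in any entry, and some had several entries (*Igf2* 4, *Mest* 3). The count of members and the share of all entries are therefore not on the same unit. The motif does not sort the genes by cell class, since *Peg3* was highest in ECs and *Meg3* in pericytes.

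*Cdkn1c* and *Grb10*, which restrain growth, were higher in stromal and vascular classes than in cancer cells. *Cdkn1c*, which encodes the cell-cycle inhibitor p57 (chr7:143458339-143461050, minus strand), was highest in fibroblasts at 42.3 CPM in sGC Ctr (85 UMIs, 33.8 to 52.3) and 18.1 CPM in sGC ∆PC (34 UMIs, 12.5 to 25.2). Pericytes had 22.4 CPM (14 UMIs) and 15.7 CPM (6 UMIs). ECs were far lower, at 3.41 CPM (6 UMIs) and 4.47 CPM (5 UMIs), and macrophages had 3.25 CPM (98 UMIs) and 1.92 CPM (52 UMIs). Cancer cells were nearly without it: 34 UMIs in 7544 cells and 43 in 13397 gave 0.0809 CPM and 0.121 CPM, 523-fold and 149-fold under fibroblasts.

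*Grb10*, an adaptor that dampens insulin and IGF1 receptor signaling (chr11:11930508-12038683, minus strand), was shared by the 3 stromal and vascular classes. Fibroblasts had 90.6 CPM (182 UMIs) in sGC Ctr and 70.6 CPM (133 UMIs) in sGC ∆PC. ECs had 64.8 CPM (114 UMIs) and 79.6 CPM (89 UMIs), and pericytes 52.7 CPM (33 UMIs) and 80.9 CPM (31 UMIs). In sGC ∆PC these 3 classes were not separated beyond counting error, while in sGC Ctr fibroblasts were above ECs. Cancer cells had 4.95 CPM (2081 UMIs) and 4.93 CPM (1744 UMIs).

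*Plagl1*, a zinc finger gene that has been called a hub of the imprinted network (chr10:13060504-13131694, plus strand), had only 50 UMIs in all kept cells of sGC Ctr and 63 in those of sGC ∆PC. Fibroblasts held 24 UMIs (11.95 CPM) in sGC Ctr and 7 UMIs (3.72 CPM) in sGC ∆PC, and cancer cells 5 and 21 UMIs. Granulocytes held 1 UMI (1.71 CPM) and 10 UMIs (12.9 CPM). Fibroblasts were thus highest in sGC Ctr, but in sGC ∆PC granulocytes were, 3.46-fold above fibroblasts (1.19 to 10.7). Pericytes held none, which allows up to 5.89 CPM and 9.63 CPM.

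*Kcnq1ot1*, the paternally expressed noncoding RNA that keeps neighboring genes silent in cis (chr7:143203458-143296549, minus strand, within *Kcnq1* and 162 kb from *Cdkn1c*), was highest in cancer cells. It was at 201 CPM in sGC Ctr (84473 UMIs, 199.6 to 202.3) and 196 CPM in sGC ∆PC (69248 UMIs, 194 to 197). Lymphocytes were next, at 158 CPM (56 UMIs) and 169 CPM (75 UMIs), and were not separated from cancer cells. Fibroblasts followed with 111 CPM (223 UMIs) and 137 CPM (258 UMIs), separated from lymphocytes in sGC Ctr but not in sGC ∆PC. All other classes were between 44.4 CPM and 83.8 CPM.

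Set against cancer cells, 4 of 10 members tested in fibroblasts were at least 2-fold higher in both libraries (*Meg3*, *Plagl1*, *Cdkn1c*, *Grb10*) and 1 was lower (*Peg3*), where 15.3% and 8.77% of all genes tested were. *Plagl1* reached the minimum of 50 UMIs only with its fibroblast UMIs. In pericytes 3 of 9 were higher (*Meg3*, *Cdkn1c*, *Grb10*) and 2 lower (*Peg3*, *Kcnq1ot1*), against 12.6% and 6.17% of all genes. In ECs 4 of 9 were higher (*Peg3*, *Mest*, *Cdkn1c*, *Grb10*) and 3 lower (*H19*, *Igf2r*, *Kcnq1ot1*), against 15.4% and 11.3%. *Cdkn1c* in ECs rested on 6 and 5 UMIs. In macrophages only *Cdkn1c* of 9 was higher, and 6 were lower (*H19*, *Igf2*, *Peg3*, *Kcnq1ot1*, *Mest*, *Grb10*), against 20% and 18.5%. In granulocytes 0 of 9 were higher and 3 lower (*Peg3*, *Kcnq1ot1*, *Grb10*), against 12.6% and 19.4%. Lymphocytes had 0 of 9 higher and 3 lower (*H19*, *Peg3*, *Mest*), against 12.2% and 10%. Dendritic cells had 0 of 9 higher and 6 lower (*Igf2*, *Igf2r*, *Peg3*, *Kcnq1ot1*, *Mest*, *Grb10*), against 11.1% and 13.7%. A gene could reach 50 UMIs on its cancer-cell UMIs alone. No UMI was found in either library for *Igf2*, *Mest* and *Grb10* in dendritic cells and *Mest* in lymphocytes. *Grb10* in granulocytes had 0 and 1. These ratios to cancer cells had intervals that included 0, so the calls do not show a lower level. With 10 genes these counts describe the members and say nothing of imprinted genes as a class.

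**Figure D2:**
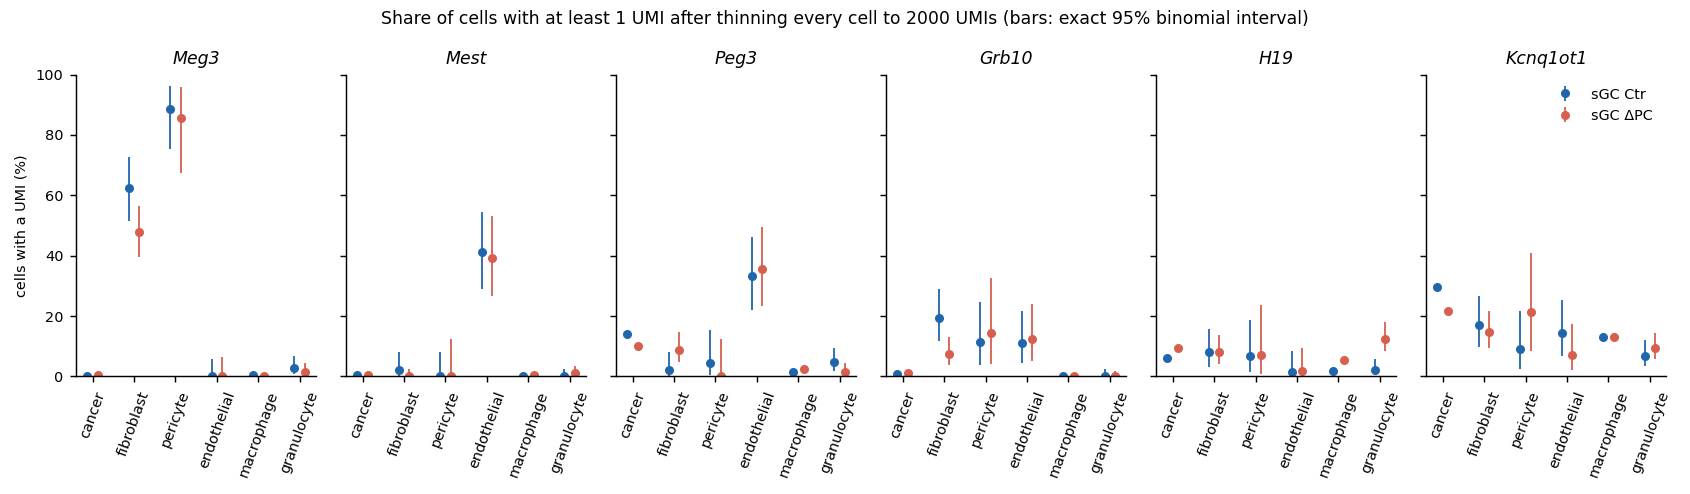
Percentage of cells with at least 1 UMI after each cell was thinned to 2000 UMIs, by class and library (sGC Ctr blue, sGC ∆PC red), with exact 95% binomial intervals as bars. *Meg3* was found in 88.6% and 85.7% of pericytes and *Mest* in 41.3% and 39.3% of ECs, while *H19* and *Kcnq1ot1* were not confined to 1 class.

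Within the cancer cells, *H19* was uneven. In sGC Ctr 66.3% of cancer cells had no *H19* UMI, where an even level at their depths would leave 14.4% without. The 5% of cells with the most held 67.0% of its UMIs and 5.92% of all UMIs. In sGC ∆PC the share without was 64.6% against 38.0%, and the top 5% of cells held 64.5% of *H19* UMIs and 11.7% of all UMIs. *Peg3* was uneven too, with 32.7% of cells lacking it against 5.92% in sGC Ctr and 55.6% against 35.7% in sGC ∆PC. For *Igf2r* the shares lay closer together, at 11.3% against 6.38% and 39.6% against 33.2%.

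*Igf2* was higher in cancer cells that were high in *H19*. In the 5% of cancer cells with the highest level of *H19* (368 and 587 cells with at least 5000 UMIs), *Igf2* was at 10.5 CPM in sGC Ctr (199 UMIs), against 0.978 CPM in the rest (392 UMIs). In sGC ∆PC it was at 10.5 CPM (186 UMIs) against 1.49 CPM (494 UMIs). Those cells had like depth to the rest, with medians of 45825.5 against 51604 UMIs and 17462 against 16515. *Igf2r* was also higher there, at 112 CPM against 76.5 CPM and 134 CPM against 79.8 CPM. *Kcnq1ot1*, on the same chromosome, was close in both sets, at 208 CPM against 199.5 CPM and 229 CPM against 194 CPM. Markers of fibroblasts were higher in the *H19*-high cells, at 17.0 per 10000 UMIs against 9.73 in sGC Ctr and 17.7 against 10.4 in sGC ∆PC, and markers of cancer cells lower, at 13.5 against 18.1 and 14.2 against 17.2. Pericyte markers were at 0.0216 against 0.0290 and 0.0338 against 0.0534. The part of these differences in the *Igf2* values was not tested.

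*Usp29* and *Mest* were higher in cancer cells that were high in *Peg3*. In the 5% of cancer cells highest in *Peg3*, *Usp29* was at 11.3 CPM against 2.04 CPM in sGC Ctr and 9.20 CPM against 1.88 CPM in sGC ∆PC. *Mest* was at 8.02 CPM against 2.47 CPM and 4.75 CPM against 2.66 CPM. Fibroblast markers were higher in these cells, at 19.2 per 10000 UMIs against 9.71 in sGC Ctr and 17.6 against 10.3 in sGC ∆PC, and cancer-cell markers lower, at 12.5 against 18.1 and 14.5 against 17.2. EC markers were at 0.394 against 0.392 and 0.401 against 0.427. In the 5% of cells highest in *Mest*, EC markers were higher, at 0.523 against 0.386 and 0.685 against 0.408. The part of these markers was not tested. The depth of the *Peg3*-high cells differed in opposite directions, with medians of 39475.5 against 52111 UMIs (sGC Ctr) and 33077 against 16199 (sGC ∆PC). So did that of the *Mest*-high cells, with 44143.5 against 51822.5 and 36108 against 15962.

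*Meg3* in cancer cells came with markers of pericytes. It was found in 2.81% of cancer cells in sGC Ctr and 2.61% in sGC ∆PC. In the *Meg3*-positive cells with at least 5000 UMIs (210 and 321 cells), *Rian* was at 2.41 CPM against 0.146 CPM and at 7.11 CPM against 0.160 CPM. Pericyte markers were at 0.333 per 10000 UMIs against 0.0169 and at 0.550 against 0.0340, and fibroblast markers at 11.95 against 9.98 and 21.3 against 10.3. The *Meg3*-positive cells were deeper, with medians of 66224 against 51094.5 UMIs in sGC Ctr and 29280 against 16348 in sGC ∆PC. The part of stromal RNA in the *Meg3* level of cancer cells, and that of depth, was not tested.

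*Kcnq1ot1*-high cancer cells were also higher in *Malat1*, *Airn*, *Peg3* and *Igf2r*. In the top 5% of cells *Malat1* was at 28669 CPM in sGC Ctr and 27596 CPM in sGC ∆PC, against 15866 CPM and 16776 CPM in the rest. *Airn* was at 49.8 CPM against 28.9 CPM and 41.5 CPM against 24.6 CPM, *Peg3* at 133 CPM against 79.4 CPM and 111 CPM against 71.0 CPM, and *Igf2r* at 122 CPM against 76.0 CPM and 114 CPM against 79.5 CPM. *Phlda2* of the same domain did not go the same way in both libraries, at 0.918 CPM (18 UMIs) against 1.21 CPM and 1.16 CPM (35 UMIs) against 1.07 CPM. *H19* was at 46.4 CPM against 46.2 CPM and 69.6 CPM against 67.0 CPM. In sGC ∆PC the *Kcnq1ot1*-high cells were deeper (median 52740 against 15814 UMIs), and in sGC Ctr they were not (49078.5 against 51437). The part of depth in these values was not tested.

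Cancer cells were then split by marker lists into ranges: the 15% of cells with at least 5000 UMIs that were highest in each list (1104 of 7356 cells in sGC Ctr and 1761 or 1763 of 11736 in sGC ∆PC) against the rest of the same library. These are ranges of a score and not cell types, and 220 to 598 cells in sGC Ctr and 477 to 1301 in sGC ∆PC lay within 10% of the cut. A member was called only where both libraries passed 2-fold in the same direction.

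The range high in *Prg4*, *Aspn* and *Ptn*, genes of matrix and joint tissue, was highest in *H19*, *Igf2*, *Peg3* and *Mest*. *H19* was at 88.9 CPM against 40.3 CPM in sGC Ctr and 123 CPM against 58.2 CPM in sGC ∆PC. *Igf2* was at 3.96 CPM (204 UMIs) against 1.05 CPM and 3.95 CPM (192 UMIs) against 1.62 CPM. These 2 of 9 members tested were called higher and none lower, where 0.495% and 0.736% of all genes tested were. *Plagl1* was under 50 UMIs in cancer cells. *Peg3*, at 165 CPM against 70.3 CPM and 127 CPM against 65.9 CPM, and *Mest*, at 5.95 CPM against 2.21 CPM and 4.44 CPM against 2.52 CPM, passed 2-fold in sGC Ctr alone. *Grb10* lay lower, at 2.80 CPM against 5.25 CPM and 3.15 CPM against 5.19 CPM. The cells of this range were somewhat shallower, with medians of 41719 against 53148 and 15346 against 16653 UMIs.

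The range high in G2/M genes, which drive mitosis, was low in *Igf2*: 0.378 CPM (32 UMIs) against 1.67 CPM in sGC Ctr and 0.813 CPM (57 UMIs) against 2.23 CPM in sGC ∆PC. *Igf2* was the only member called there, with 0 higher, where 2.18% of genes were higher and 0.515% lower. The G2/M cells were deeper, with medians of 74278 against 48665.5 and 21960 against 15754 UMIs. From 20000 UMIs up, *Igf2* was also lower in deeper cancer cells as a whole. In sGC Ctr it was at 3.00 CPM from 20000 to 40000 UMIs, 1.249 CPM from 40000 to 80000 and 0.938 CPM above. In sGC ∆PC it was at 2.94 CPM, 2.07 CPM and 1.12 CPM. Shallower sGC ∆PC cells did not continue this order, at 2.28 CPM (59 UMIs) from 5000 to 10000 UMIs and 1.73 CPM (75 UMIs) from 10000 to 20000. The part of depth was not tested. *H19* was at 31.1 CPM against 50.0 CPM in sGC Ctr but 64.6 CPM against 67.9 CPM in sGC ∆PC. In the G1/S range, high in DNA replication genes, no member was called in either direction, where 1.53% of genes were higher and 0.411% lower. *Igf2* there was at 0.799 CPM against 1.54 CPM and 1.66 CPM against 2.00 CPM.

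The hypoxia range, high in genes such as *Vegfa* and *Slc2a1*, also had no member called, where 0.867% of genes were higher and 0.632% lower. *Peg3* was lower in both libraries, at 53.5 CPM against 86.9 CPM and 46.1 CPM against 78.9 CPM. *Mest* was at 1.14 CPM against 2.94 CPM and 2.06 CPM against 2.898 CPM. In the range high in *Igfbp6*, *Clu* and *Scara5*, *Meg3* was lower, at 0.523 CPM (31 UMIs) against 1.12 CPM and 0.886 CPM (40 UMIs) against 1.97 CPM, and *Cdkn1c* was called lower on few UMIs. These 2 members were lower and 0 higher, where 0.639% and 0.189% of genes were. Neither was called when the range was narrowed to 7.5% of cells. *H19* in that range was at 69.8 CPM against 42.3 CPM in sGC Ctr and 115 CPM against 60.2 CPM in sGC ∆PC, under 2-fold in both.

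**Figure D3:**
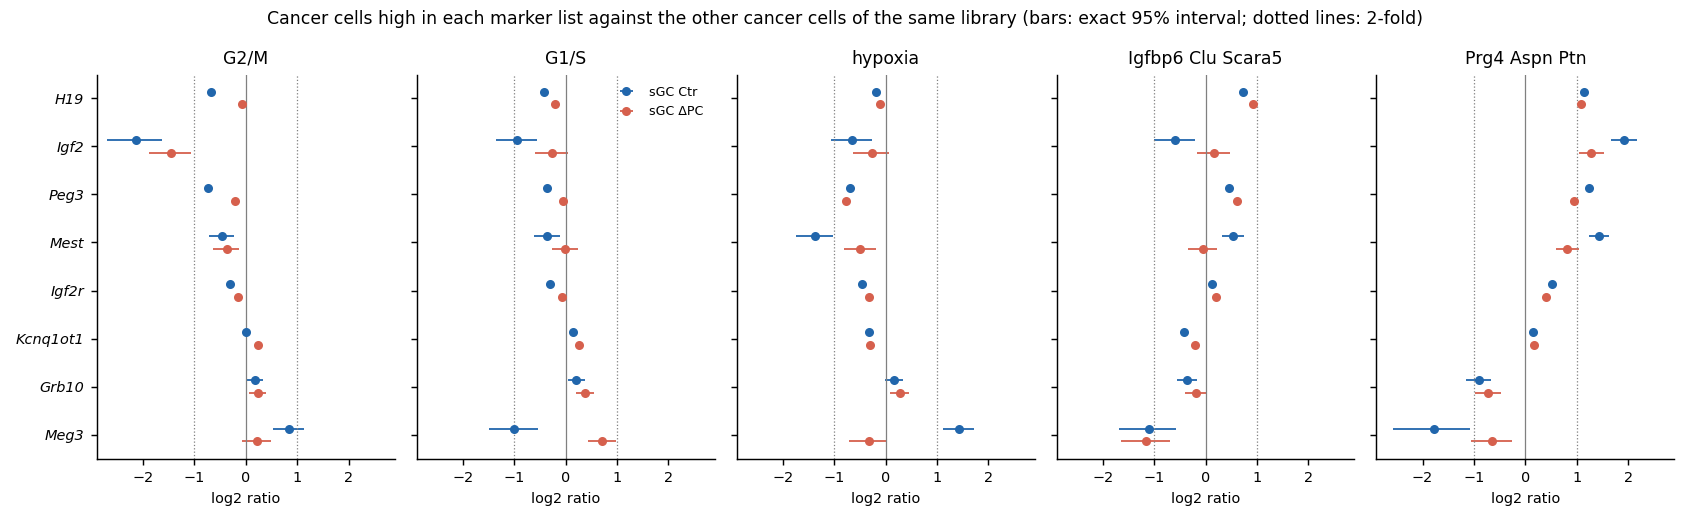
Log2 ratio of each gene in 5 ranges of cancer cells to the other cancer cells of the same library (sGC Ctr blue, sGC ∆PC red), with exact 95% intervals as bars and dotted lines at 2-fold. *H19*, *Igf2*, *Peg3* and *Mest* lie to the right in the *Prg4*, *Aspn* and *Ptn* range in both libraries, and *Igf2* lies past the left line in the G2/M range; *Cdkn1c* and *Plagl1*, with few UMIs, are not plotted.

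Between the conditions most members were close. In cancer cells 0 of the 9 members tested were 2-fold apart, where 4.31% of 15383 genes were. Nearly all of these genes lay on 1 side, with 4.17% higher in sGC ∆PC and 0.143% lower. The members' median log2 ratio (sGC ∆PC over sGC Ctr) was 0.08 against 0.01 for all genes. The ratios ran from -0.15 for *Peg3* to 0.87 for *Meg3*. *H19* (0.54, interval 0.51 to 0.57) and *Igf2* (0.48, 0.32 to 0.64) were higher in sGC ∆PC. *Kcnq1ot1* (-0.039), *Mest* (0.07), *Igf2r* (0.08) and *Grb10* (-0.01) were within 0.1 of 0.

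Several of these ratios moved with the depth of the cells. Among cancer cells with 20000 to 40000 UMIs (1777 and 1891 cells), *H19* was at 71.5 CPM in sGC Ctr and 70.6 CPM in sGC ∆PC. In cells with 40000 to 80000 UMIs it was at 44.6 CPM and 71.7 CPM, and in deeper cells at 37.3 CPM and 66.0 CPM. *Peg3* was lower in sGC ∆PC at 20000 to 40000 UMIs, at 76.1 CPM against 128 CPM, and higher in cells of at least 80000 UMIs, at 71.9 CPM against 57.7 CPM. *Igf2r* and *Kcnq1ot1* turned the same way: *Igf2r* was at 103 CPM and 81.3 CPM and then at 63.9 CPM and 80.4 CPM, and *Kcnq1ot1* at 191 CPM and 142 CPM and then at 184 CPM and 248 CPM. *Meg3* moved too: at 20000 to 40000 UMIs it was at 0.610 CPM (35 UMIs) and 2.35 CPM (128 UMIs). That was a log2 ratio of 1.95 (1.40 to 2.53), past 2-fold. In cells of at least 80000 UMIs it was at 1.69 CPM and 1.82 CPM, a ratio of 0.11. Under 20000 UMIs sGC Ctr had few cancer cells: 188 under 5000, 67 from 5000 to 10000 and 201 from 10000 to 20000. The sGC ∆PC library had 1661, 3484 and 3090 there. Under 5000 UMIs the log2 ratio was -2.80 for *Kcnq1ot1* and -1.93 for *Peg3*. The part of depth in the difference between libraries was not tested.

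**Figure D4:**
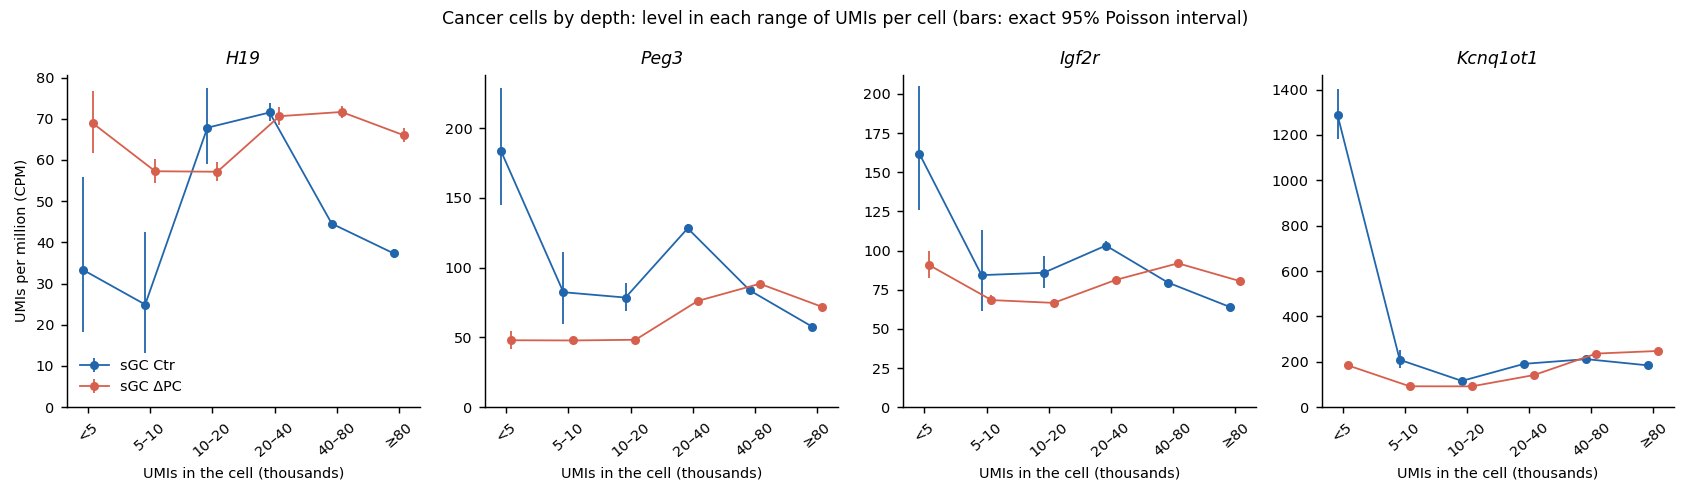
Level (CPM, linear axis) of 4 genes in cancer cells grouped by UMIs per cell, with sGC Ctr in blue, sGC ∆PC in red and exact 95% Poisson intervals as bars. The lines cross for *H19*, *Peg3*, *Igf2r* and *Kcnq1ot1*, and *Kcnq1ot1* reached 1288 CPM in the 188 sGC Ctr cells under 5000 UMIs.

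Fibroblasts had 1 of 7 members 2-fold apart. This was *Cdkn1c*, lower in sGC ∆PC, at 42.3 CPM and 18.1 CPM (log2 ratio -1.23, interval -1.85 to -0.64). Over all genes 2.51% were apart and 1.39% were lower by 2-fold. In cells with at least 10000 UMIs (83 and 50 cells) *Cdkn1c* was at 41.9 CPM (83 UMIs) and 13.8 CPM (19 UMIs). Thinned to 2000 UMIs, it was found in 6.82% of 88 fibroblasts and 6.08% of 148, with intervals of 2.54% to 14.3% and 2.82% to 11.2% (39.1% and 11.0% of cells unthinned). The log2 ratio of thinned counts was -0.22, and with gates set 2-fold lower or higher it was -0.66 or -0.71, so the call was lost under these 3 settings. Fibroblasts differed in depth, with medians of 19623.5 UMIs per cell (sGC Ctr) and 3613 (sGC ∆PC). *Plagl1* was lower on 24 and 7 UMIs, under the minimum of 50.

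*Peg3* in fibroblasts was at 14.9 CPM (30 UMIs) and 27.6 CPM (52 UMIs), a log2 ratio of 0.89 (0.21 to 1.59), while the cancer-cell RNA share of the class was 5.76% and 10.8%. That share would carry 4.72 CPM and 7.97 CPM of *Peg3*, and its part in the difference was not tested. *Meg3* had a log2 ratio of -0.29 and *Grb10* of -0.36. In cells with at least 10000 UMIs *Meg3* was at 869 CPM and 828 CPM, a log2 ratio of -0.07 with an interval of -0.18 to 0.04. *Grb10* in those cells had a log2 ratio of -0.18 (-0.54 to 0.17). *H19* had a log2 ratio of -0.14 (-0.63 to 0.34) over all fibroblasts. In those with at least 10000 UMIs it was at 40.4 CPM (80 UMIs) and 20.4 CPM (28 UMIs), a log2 ratio of -0.99 (-1.66 to -0.35).

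In pericytes, the class in which the study aimed to delete sGC, 0 of 4 members tested were apart, where 3.38% of 2932 genes were. *Meg3* had a log2 ratio of -0.57 (-0.74 to -0.41), which was -0.59 in cells with at least 10000 UMIs, 0.00 with gates set 2-fold lower and -1.03 with gates set 2-fold higher. *Igf2r* had 0.06, and *Kcnq1ot1* and *Grb10* 0.62 each, on 33 and 31 UMIs with intervals of -0.14 to 1.37. The neighboring *Dlk1* was higher in sGC ∆PC, with a log2 ratio of 1.39 (0.75 to 2.04), where 1.30% of genes were 2-fold higher. The 56 UMIs of *Dlk1* in sGC ∆PC came from 15 of 38 cells, and the top 2 cells held 41.1% of them. In pericytes with at least 10000 UMIs (29 and 15 cells) *Dlk1* was at 52.4 CPM and 74.6 CPM, a log2 ratio of 0.51 with an interval of -0.38 to 1.39. *Rian* had a log2 ratio of 0.06, and *Mirg* was under 50 UMIs.

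In ECs 0 of 5 members were apart, where 1.71% of 6309 genes were. *Mest* had a log2 ratio of -0.34 (-0.52 to -0.15) and *Peg3* of -0.09 (-0.26 to 0.08). Neither *Igf2r* (0.51), *Grb10* (0.30) nor *Kcnq1ot1* (0.21) had an interval that left out 0. Lymphocytes had only *Kcnq1ot1* tested, at 0.10, so 0 of 1 was apart where 1.54% of genes were. In dendritic cells no member reached 50 UMIs.

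Macrophages had 1 of 6 members apart. *H19* was at 9.29 CPM (280 UMIs) in sGC Ctr and 22.9 CPM (619 UMIs) in sGC ∆PC, a log2 ratio of 1.30 (1.09 to 1.51), where 1.13% of genes were apart and 0.843% higher by 2-fold. The difference shrank with depth. In macrophages under 5000 UMIs *H19* was at 8.74 CPM and 59.2 CPM, from 5000 to 10000 UMIs at 10.5 CPM and 32.3 CPM, and from 10000 UMIs at 8.86 CPM and 13.7 CPM, a log2 ratio of 0.63. Cancer-cell RNA would carry 3.70 CPM and 6.18 CPM, and with cells under a cancer-cell share of 25% alone the log2 ratio was 1.07. The parts of depth and of cancer-cell RNA were not tested. *Cdkn1c* was at 3.25 CPM and 1.92 CPM, a log2 ratio of -0.76 (-1.27 to -0.26). In macrophages with at least 10000 UMIs its log2 ratio was -0.55 (-1.23 to 0.12).

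Granulocytes had the same gene apart, 1 of 3 members tested. *H19* was at 17.1 CPM (10 UMIs) and 61.7 CPM (48 UMIs), a log2 ratio of 1.85 (0.85 to 3.00), where 3.97% of genes were apart and 2.15% higher by 2-fold. Cancer-cell RNA would carry 4.49 CPM and 7.61 CPM. The call was lost with stricter mitochondrial or cancer-cell RNA limits, with lower gates and after thinning. *Kcnq1ot1* (0.41) and *Igf2r* (0.18) had intervals that included 0.

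**Figure D5:**
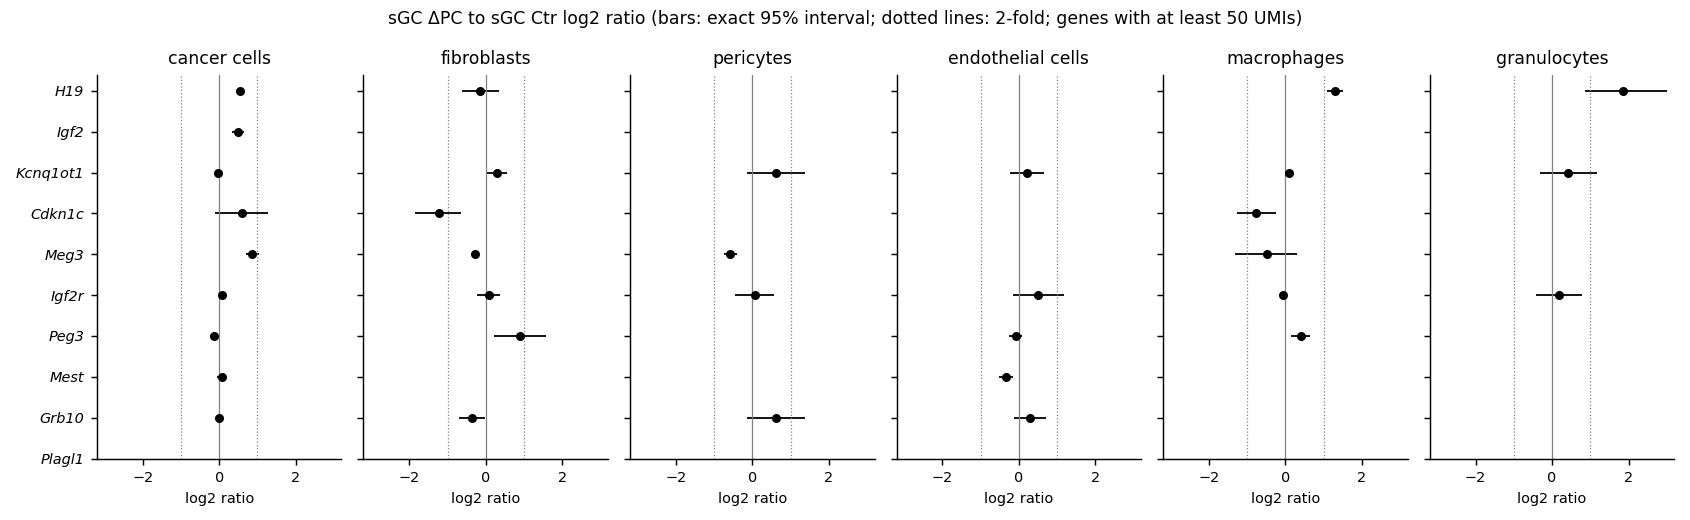
Log2 ratio (sGC ∆PC over sGC Ctr) for members with at least 50 UMIs in 6 classes, with exact 95% intervals as bars and dotted lines at 2-fold. Points past a dotted line are *Cdkn1c* in fibroblasts (-1.23) and *H19* in macrophages (1.30) and granulocytes (1.85).

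Of 50 further imprinted genes listed by hand, 48 were found. In cancer cells 34 could be tested and 0 were 2-fold apart between conditions, where 4.31% of all genes were, and in fibroblasts 0 of 15, where 2.51% were. Their median log2 ratios were 0.00 and -0.12, against 0.01 and -0.08 over all genes. Pericytes had *Dlk1* apart of 8 tested, where 3.38% of all genes were, and macrophages 3 of 23, where 1.13% were: *Ndn* (1.33 CPM and 2.77 CPM) and *Peg10* (1.20 CPM and 3.14 CPM) higher and *Ascl2* (1.33 CPM and 0.555 CPM) lower, which are named after their values were seen. *Ndn* and *Peg10* were far higher in cancer cells, at 19.4 CPM and 18.7 CPM and at 10.9 CPM in both libraries, while cancer-cell RNA in macrophages was 8.01% and 9.19%. Its part in the macrophage values, and that of depth, was not tested. ECs had 0 of 12 apart (1.71% of all genes), granulocytes 0 of 5 (3.97%) and lymphocytes 0 of 5 (1.54%).

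The genes whose levels ran most like each member were found over the 16 sums of 8 classes in 2 libraries, by Pearson's r of log2(CPM + 1) among 13904 genes. These points share 2 libraries and include the gate genes, so r is a description. *Peg3* ran with *Egfl7* (0.95, an EC gate gene), *Sh3tc2* and *Halr1*, and *Mest* with *Mmrn2* (0.98), *Mmp15* and *Nova2*. *Meg3* ran with *Smim41* (0.98), *Aoc3* and *Lox*, *Grb10* with *Tsc22d1* (0.98), *Ddah1* and *Sparc*, and *Igf2r* with *Cxcl1* (0.93), *Dennd2a* and *Selenbp1*. *Kcnq1ot1* ran with *Gm10069* (0.90), *Snhg17* and *Carnmt1*, *Cdkn1c* with *Cog6* (0.92), *C2* and *Zfp618*, *H19* with *Meis1* (0.85), *Ptprs* and *Chpf*, and *Igf2* with *Klhl23* (0.81), *Etohd2* and *Gm10425*. *Plagl1*, with 86 UMIs over these sums, was under the minimum of 200.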

How the data were processed

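Single cells of LLC tumors were measured in 2 libraries, 1 per condition, made with 10x 3′ chemistry. The authors deposited raw UMI counts per gene and barcode, made with Cell Ranger 6.1.1 on mm10 with GENCODE vM23 (Ensembl 98) genes. Whether counting used strand is not given in the sources used here. The study's own cell filter and cluster labels were not used here.

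A cell passed if mitochondrial UMIs made up less than 10% and if its UMI and gene numbers, on a log scale, lay no more than 3 median absolute deviations from the library median. Classes were set by summed marker UMIs per 10000 (cancer cells 6, ECs 12, pericytes 12, fibroblasts 80, macrophages 80, granulocytes 80, T cells 10, NK cells 8, dendritic cells 8) with 2 or 3 markers found. T and NK cells form the lymphocytes. Cells at the gate level of several classes, whatever the number of markers found, were set aside, and no doublet caller was run. The exception was that the fibroblast level was ignored in cells past the pericyte gate, so a cell past both counted as a pericyte. Between 0 and 378 cells of each of the cancer, stromal, vascular and macrophage classes lay within 25% above their gate.

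Raw counts were summed per class and library, and given as CPM with exact Poisson intervals. Ratios have exact conditional intervals and shares exact binomial ones. Genes with at least 50 UMIs over the compared cells were tested for a 2-fold difference. For a gene with no UMI, the upper end of its exact interval is given. No p-value was computed, as each condition is 1 library. The 10 genes, the marker lists and the list of further imprinted genes were chosen with earlier results of these data known. All 10 are named, with their domain neighbors and the 3 genes most like each by Pearson's r. The scripts were tested on simulated data. Alternatives were other cell filters, gates, depths, count minimums and scaling. Python 3.11.15 with numpy 2.4.6, scipy 1.17.1, pandas 2.3.3 and matplotlib 3.10.9 was used. Gene positions come from GENCODE vM21 on GRCm38, and promoter and microRNA sequences from RefSeq.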

Additional observations from a re-analysis of the deposited data

Results flagged for a closer look

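Some genes differed between the libraries in opposite directions in different classes. The difference between classes was not tested, since each condition is 1 library.

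*Peg3* had a log2 ratio (sGC ∆PC over sGC Ctr) of 0.89 in fibroblasts and 0.40 in macrophages but -0.15 in cancer cells, each with an interval that left out 0. In cells with at least 10000 UMIs the ratio was 0.62 in fibroblasts (-0.15 to 1.41) and 0.03 in macrophages (-0.28 to 0.35), and in cancer cells with at least 80000 UMIs it was 0.32. The part of depth was not tested. *Kcnq1ot1* had 0.30 in fibroblasts and -0.039 in cancer cells. *Meg3* had 0.87 in cancer cells, where it was scarce, and -0.29 in fibroblasts and -0.57 in pericytes, where it was abundant. The cancer cells of sGC ∆PC also held more pericyte-marker RNA, 0.0540 per 10000 UMIs against 0.0288. Their fibroblast markers were closer, at 10.8 against 10.1. Whether stromal RNA made the *Meg3* ratio of cancer cells differ in direction was not tested.

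Cells outside the compared classes also carried signal. In cells with markers of more than 1 class *H19* was at 35.9 CPM in sGC Ctr (342 UMIs) and 74.7 CPM in sGC ∆PC (1097 UMIs), a log2 ratio of 1.06. In cells with no class *Meg3* was at 2.78 CPM (30 UMIs) and 8.22 CPM (94 UMIs), a log2 ratio of 1.56. Only genes at least 2-fold higher in sGC ∆PC were picked for this part. Other members were lower there, such as *Peg3* in cells with no class (101 CPM and 50.6 CPM). *Meg3* in cells with markers of more than 1 class was lower too (174 CPM and 88.7 CPM).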

How the results depend on the processing

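No paired analysis was possible because each condition is 1 library. Of 80 counts of members recomputed under an alternative, 57 stayed within 1.5 times the reported count and 23 moved, and of 286 ratios of single genes 221 moved by less than their interval and 246 kept their sign. Cutoffs by depth per cell in the comparison of conditions were chosen after seeing the data. Thinning to 2000 UMIs, or taking cells with 20000 to 40000 UMIs, put 1 member (*Meg3*) 2-fold apart in cancer cells in place of 0, and a minimum of 20 UMIs or no minimum put 1 (*Plagl1*). In fibroblasts the count of 1 became 0 with gates halved and after thinning, 2 with a minimum of 20 UMIs and 4 with none. With gates doubled it was again 1, but the gene was *Peg3* and not *Cdkn1c*. In pericytes the count of 0 became 1 with mitochondrial UMIs under 5%, 3 with gates doubled (*H19*, *Kcnq1ot1*, *Meg3*), 1 with gates halved and 1 with no minimum. In ECs it became 3 and in lymphocytes 4 with no minimum. In macrophages the count of 1 became 0 in cells with at least 10000 UMIs and 2 with a minimum of 20 UMIs or none. In granulocytes it became 0 with mitochondrial UMIs under 5%, gates halved, cancer-cell RNA under 25% or thinning, and 5 with no minimum. The 2 members low in the *Igfbp6*, *Clu* and *Scara5* range became 0 in the narrower range. Apart from the count minimums, which change how many genes enter, the cause was not tested. Depth limits the small classes most: pericytes had 626296 and 383081 UMIs, so 4 of the 10 members could be tested there.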

Other observations

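Cells that passed no gate (1060 in sGC Ctr and 2901 in sGC ∆PC) held markers of cancer cells at 19.4% and 22.2% of the level in cancer cells. Macrophage markers were at 19.7 and 26.4 per 10000 UMIs, against 3.32 and 7.20 in cancer cells. In these unclassed cells *Kcnq1ot1* was at 224 CPM and 143 CPM, *Igf2r* at 109 CPM and 81.4 CPM, *Peg3* at 101 CPM and 50.6 CPM and *H19* at 89.8 CPM and 67.9 CPM. *Igf2* was at 3.81 CPM (41 UMIs) and 4.81 CPM (55 UMIs). Their median depth was 5830 and 1548 UMIs.

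Cells with markers of more than 1 class (392 and 2307) held stromal and vascular RNA as well. *Meg3* was at 174 CPM and 88.7 CPM, which made up 33.2% and 33.5% of all its UMIs. *Mest* was at 13.2 CPM and 9.33 CPM, *Kcnq1ot1* at 171 CPM and 116 CPM and *Peg3* at 61.2 CPM and 45.0 CPM.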
